A study of Homo sapiens with 9 samples.

Results

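The genes described here are 10 AP-1 and immediate-early genes, matched by name among the 58735 genes of the deposited table: FOS, FOSB, FOSL1 and FOSL2 of the Fos family, JUN, JUNB and JUND of the Jun family, and EGR1, IER2 and IER3. The values come from RNA sequencing of H1299, an established human line labelled as lung adenocarcinoma cells, in 9 libraries that form 3 groups of 3. Vector cells carried the lentiCRISPR v2 plasmid delivered by lentivirus and are labelled wild type. KO1 and KO2 are 2 BCKDK knockout lines, edited with CRISPR and each grown from a single cell by limited dilution. BCKDK is the kinase that inhibits branched-chain ketoacid dehydrogenase. Nothing describes the Vector cells as a single clone, so the effect of editing and that of cloning cannot be told apart, and for BCKDK knockout in general n is 2 clones. The labels name no drug, serum condition or time for any group. They leave unsaid whether libraries of 1 group were separate cultures, so p-values cover the spread among libraries alone, and that spread may be technical.

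AP-1 is a dimeric transcription factor. Jun proteins pair with each other or with Fos proteins through a leucine zipper, whereas Fos proteins need a Jun partner, and the dimer binds the TPA response element. FOS, FOSB, JUN, JUNB, EGR1, IER2 and IER3 are classical immediate-early genes, whose short-lived transcripts appear within minutes of a growth factor or stress signal without new protein synthesis. ERK signalling drives them through SRF and its ETS-family partners at CArG boxes and through CREB-family proteins at cyclic AMP response elements (CRE). FOSL1 (FRA-1) is a later ERK and AP-1 output that is prominent in RAS- and ERK-driven carcinoma cells.

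RefSeq promoter windows of build GRCh38.p14 were matched for 8 of the 10 genes, and FOSL1 and IER3 are named only. The 3 sequences shown belong to FOS, FOSB and EGR1, the members whose KO1 libraries all lay below all Vector libraries, as given further on. Each ends before the transcript start of both RefSeq and GENCODE 29. FOS is shown at chr14:75278578-75278773, FOSB at chr19:45467746-45467994 and EGR1 at chr5:138465229-138465478, all on the plus strand. Capitals mark matches to the CRE core (TGACG), the CArG box and the EGR site (GCGNGGGCG), on either strand.
FOS: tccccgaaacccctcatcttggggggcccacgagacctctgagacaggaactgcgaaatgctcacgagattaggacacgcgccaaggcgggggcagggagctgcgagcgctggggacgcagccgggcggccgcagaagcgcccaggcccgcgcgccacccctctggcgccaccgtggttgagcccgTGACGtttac
FOSB: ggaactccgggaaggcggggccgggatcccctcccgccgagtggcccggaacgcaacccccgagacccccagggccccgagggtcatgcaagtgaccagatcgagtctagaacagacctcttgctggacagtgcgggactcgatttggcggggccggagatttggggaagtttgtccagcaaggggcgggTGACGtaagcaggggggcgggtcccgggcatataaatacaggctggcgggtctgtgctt
EGR1: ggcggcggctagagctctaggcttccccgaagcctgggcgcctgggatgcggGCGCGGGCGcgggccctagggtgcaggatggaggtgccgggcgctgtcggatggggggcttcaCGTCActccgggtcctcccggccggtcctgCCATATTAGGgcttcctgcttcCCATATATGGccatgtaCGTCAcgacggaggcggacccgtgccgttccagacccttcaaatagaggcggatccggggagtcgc

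In the 250 bases before the RefSeq start, a CRE core was found in 8 of the 8 matched genes, against 21.2% of 35116 promoters of that length. EGR1 held 2 CArG boxes (1.2% of promoters held at least 1) and 1 EGR site (8.4%). JUN and JUND each held 1 CRE-like site (TGACNTCA, 6.9% of promoters), which in JUND overlapped matches to the core. No window held TGANTCA, the AP-1 site (6.6% of promoters), and FOS, FOSB and JUNB held a TATA box (TATAAA, 10.7%). Both strands of these 250 bases alone were searched, so sites further upstream, CArG boxes among them, are not covered. A match is a description of letters, not of binding.

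**Figure D1:**
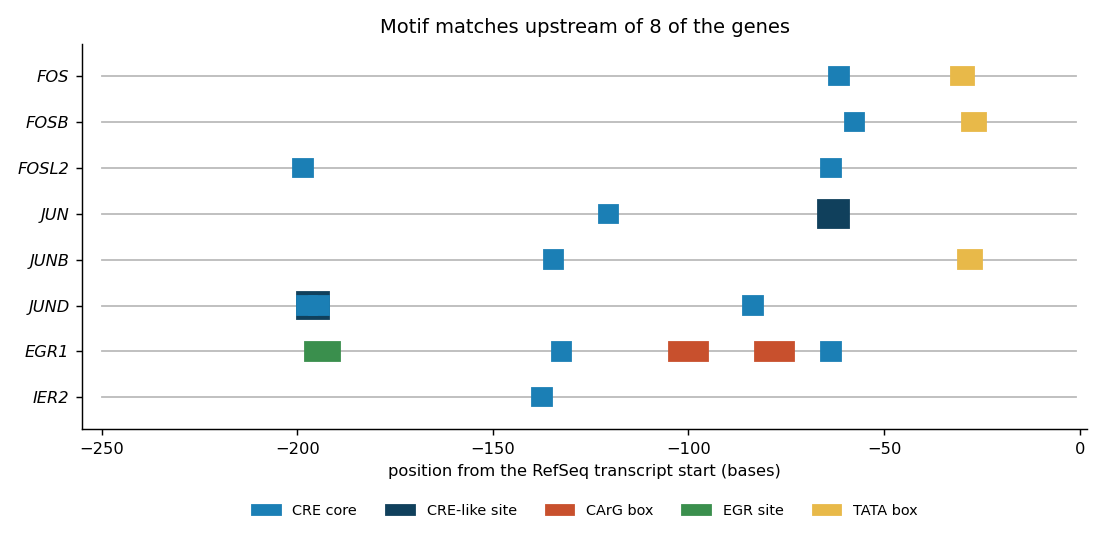
Motif matches in the 250 bases upstream of the RefSeq transcript start of 8 genes (x axis, bases from the start; 1 row per gene; coloured boxes, matches on either strand). All 8 rows hold a CRE core, and the 2 CArG boxes stand in the EGR1 row.

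Recovered depth was 16002212 to 17090445 reads per library, and the 10 genes had between 368 reads (FOSB in KO1 replicate 2) and 6489 reads (FOSL1 in Vector replicate 3). BCKDK, the targeted gene, ranged over 12.9 to 17.5 FPKM (FPKM is a read count per exon length and per library depth) for Vector, 1.67 to 2.06 for KO1 and 0.287 to 0.628 for KO2. The lung markers NKX2-1, SFTPB, SFTPC, EPCAM and CDH1 were at most 0.169 FPKM in any library, while vimentin (VIM) ranged from 454 to 817 FPKM. NAPSA, also on the lung list, did not pass 0.514 FPKM. KRT7 was 0.0577 to 0.167 FPKM for Vector, 0.607 to 1.24 for KO1 and 0.0553 to 0.166 for KO2. The summed level of 9 lung epithelium markers, nearly all of it KRT8 and KRT18, was 67.1 to 92.2 FPKM for Vector, 426 to 490 for KO1 and 102 to 121 for KO2. KRT8 and KRT18 rose in KO1 by 2.83 and 2.38 on the log2 scale used below. In KO2 KRT18 rose by 0.54 (limma adjusted p = 0.0165) and KRT8 stood at 0.02 (limma adjusted p = 0.95). The part of KRT8 and KRT18 in the results was not tested. Summed levels of the leukocyte, endothelial and fibroblast markers did not pass 0.388, 0.106 and 0.684 FPKM. In limma's library weights the third Vector library (0.106) and the third KO2 library (0.163) were the lowest, against 0.625 to 4.04 for the remaining 7. Their mitochondrial shares of reads were 5.48% (6.91% and 7.44% in the other Vector libraries) and 9.77% (5.94% and 5.99% in the other KO2 libraries).

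The same 2 libraries stood apart for the genes described here. Vector replicate 3 was the highest of the Vector libraries for 10 of the 10 genes, while it was the highest for 41% and the lowest for 43.6% of all 16426 fitted genes. KO2 replicate 3 was the lowest of the KO2 libraries for 9 of the 10, and the lowest for 43% of fitted genes. FOSL2 was the exception, highest in that library, as were 42% of fitted genes. FPKM in KO2 replicate 3 relative to the mean of the other KO2 libraries was 0.378 for IER3, 0.407 for JUN, 0.451 for JUNB, 0.456 for FOS, 0.53 for IER2 and 0.552 for EGR1, but 0.851 for FOSL1 and 1.04 for FOSL2. The matching ratio for Vector replicate 3 ran from 1.24 (FOS) to 2.03 (JUND) and 2.35 (JUNB), beside a median of 0.975 over the fitted genes. Of 21 fitted genes on a list of other immediate-early genes, KO2 replicate 3 was the lowest of its group for 17 and Vector replicate 3 the highest of its group for 14. The part that library quality or cell state at harvest plays in these values was not tested, and the values without these libraries stand beside the results they change.

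**Figure D2:**
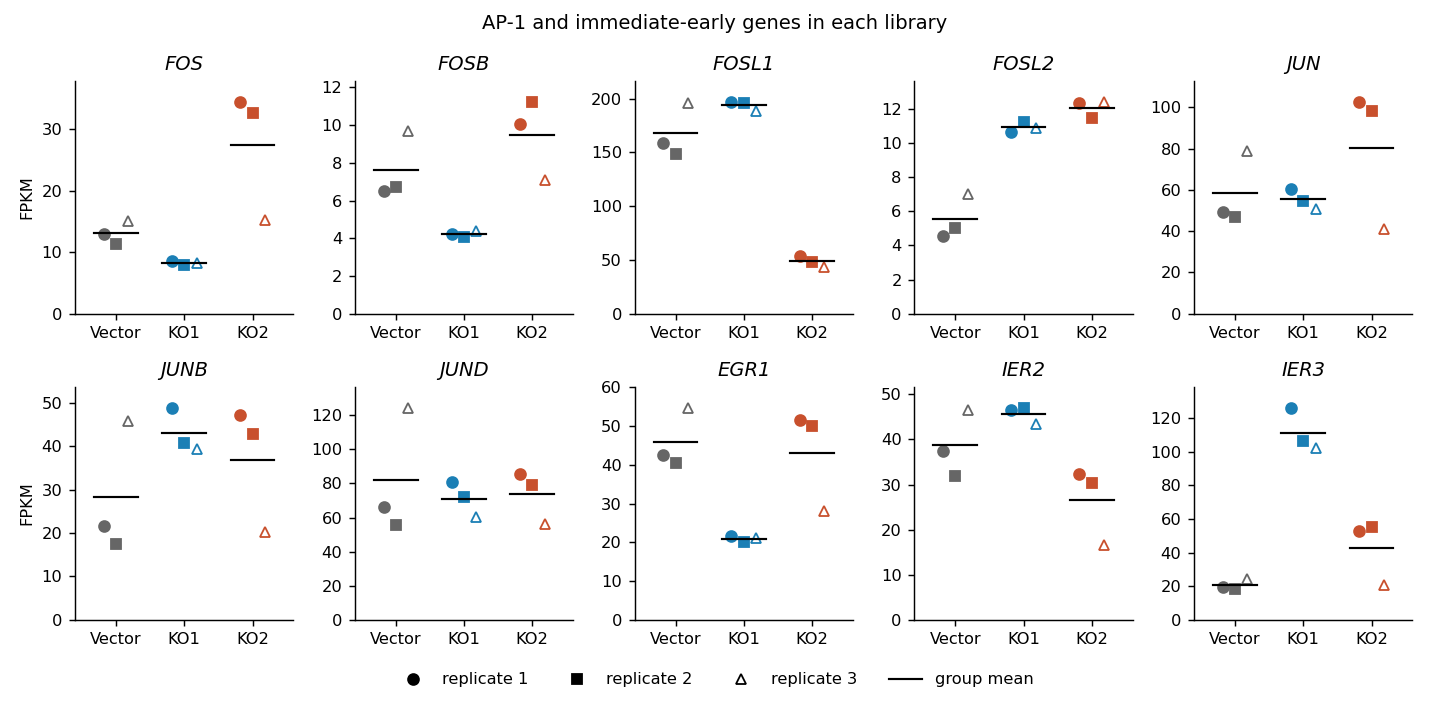
FPKM (y axis, linear from 0) of each gene in the 9 libraries, by group (x axis); points are libraries, open triangles are replicate 3, and black lines are group means. The open triangle lies highest in Vector in 10 of 10 panels and lowest in KO2 in 9 of 10.

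Values were tested with limma on log2(FPKM + 1) for the 16426 genes that averaged 0.5 FPKM or more, a filter that all 10 genes passed, and changes are on that log2 scale, which understates those of low genes. A call is a Benjamini-Hochberg adjusted p under 0.05 over all fitted genes. In KO1 against Vector 2 of the 10 rose (FOSL2 and IER3) and 2 fell (FOSB and EGR1), where 34.1% of all fitted genes were called, 17.4% higher and 16.7% lower. In KO2 against Vector 2 rose (FOS and FOSL2) and 1 fell (FOSL1), where 27.9% were called, 12.9% higher and 15% lower. The clones differed directly in 6 of the 10, with FOS, FOSB and EGR1 higher and FOSL1, IER2 and IER3 lower in KO2 than in KO1, against 30.9% of fitted genes, 14.5% higher and 16.4% lower. For the mean of both clones FOSL2 (0.95) and IER3 (1.65) rose and FOSL1 (-0.77) and EGR1 (-0.60) fell, beside 31.3% of fitted genes, 15.3% higher and 16% lower. That test uses the spread among libraries, not that between the 2 clones. FOSL1 stood at 0.22 in KO1 and -1.76 in KO2, and EGR1 at -1.08 and -0.12, so each fall was called in 1 clone only. IER3 was called in KO1 alone, and FOSL2 in both clones. In bulk RNA fewer expressing cells and less RNA per cell cannot be told apart.

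More was called without the 2 libraries that stood apart, among these genes and among all genes. Leaving out Vector replicate 3, highest of its group for 10 of the 10 genes, lowers every Vector mean. Leaving out KO2 replicate 3, lowest of its group for 9 of the 10, raises those KO2 means. Rises against Vector without these libraries, here and below, are thus partly set by the choice of libraries. KO2 against Vector then compares 2 libraries with 2. In KO1 5 rose and 3 fell (56.8% of fitted genes called, 29.5% higher and 27.3% lower). In KO2 8 rose and 1 fell (49.5%, 24.1% higher and 25.4% lower). Between the clones 4 were higher and 3 lower in KO2 (47.7%, 21.6% higher and 26.1% lower), JUN being higher and called there. For the mean of both clones 5 rose and 2 fell (54.5%, 27.7% higher and 26.8% lower). Both clone comparisons use the same Vector libraries.

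Over the 9 libraries, KO1 and Vector did not overlap for 5 of the 10 genes, with FOSL2 and IER3 above and FOS, FOSB and EGR1 below, beside 50.1% of fitted genes (26% above, 24.1% below). KO2 and Vector did not overlap for 3, FOS and FOSL2 above and FOSL1 below, beside 39% (18.3% above, 20.7% below). The clones did not overlap for 7, with FOS, FOSB, FOSL2 and EGR1 above and FOSL1, IER2 and IER3 below in KO2, beside 53.6% (24.8% above, 28.8% below).

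**Figure D3:**
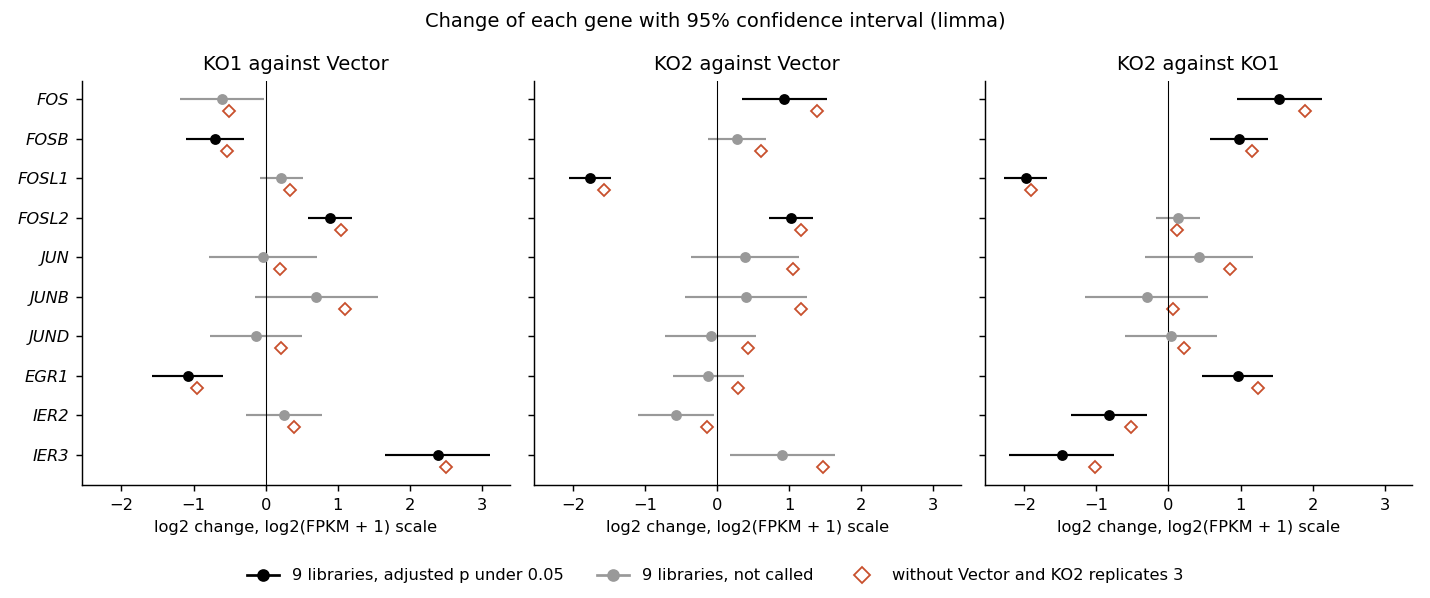
log2 change of each gene (x axis, log2(FPKM + 1) scale) in 3 comparisons; circles with bars are limma estimates with 95% confidence intervals, black where called and grey where not, and open diamonds are estimates without Vector and KO2 replicates 3. FOSL1 lies at -1.76 in KO2 against Vector and at 0.22 in KO1, and the diamonds of JUN and JUNB in KO2 lie right of their circles.

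FOSL1, the most abundant Fos family transcript in Vector, fell in KO2, was not called in KO1, and differed between the clones. FOSL1 (ENSG00000175592, chromosome 11, 65892049 to 65900573 of hg38, minus strand) measured 159, 149 and 196 FPKM in Vector, 197, 196 and 189 in KO1 and 53.8, 48.3 and 43.5 in KO2. The 3 KO2 libraries lay far below the other 6, and Vector and KO1 overlapped. The change in KO2 against Vector was -1.76 (SE 0.13, limma adjusted p = 2.28e-05), a ratio of means of 0.289. KO2 against KO1 gave -1.98 (limma adjusted p = 1.19e-05). In KO1 the value was 0.22 (95% confidence interval -0.08 to 0.51, limma adjusted p = 0.228), and it passed the test at 0.33 without Vector replicate 3 (limma adjusted p = 0.0297). The KO2 change was called under all 20 alternative settings, with values from -2.08 to -1.57. Genes within 5 Mb of FOSL1 had a median change of 0.33 in KO2, opposite in sign.

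FOSL2 (FRA-2), a Fos protein that like FOSL1 lacks a strong transactivation domain, rose in both clones. FOSL2 (ENSG00000075426, chromosome 2, 28392448 to 28417312, plus strand) measured 4.54, 5.01 and 7.04 FPKM in Vector, 10.7, 11.3 and 10.9 in KO1, and 12.4, 11.5 and 12.4 in KO2. Every knockout library lay above every Vector library. The KO1 change was 0.89 (SE 0.14, limma adjusted p = 0.00109) and the KO2 change 1.02 (SE 0.14, limma adjusted p = 0.000676). The clones differed by 0.13 (95% confidence interval -0.17 to 0.43, limma adjusted p = 0.505). Both changes were called under all 20 alternatives. The intronic transcript AC104695.3 inside FOSL2 reached 2.09 FPKM, and the antisense transcript FLJ31356 did not pass 0.082 FPKM.

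FOS, the founding member of the family, stood on opposite sides of Vector in the clones. FOS (ENSG00000170345, chromosome 14, 75278774 to 75282230, plus strand) measured 13, 11.4 and 15.1 FPKM in Vector, 8.5, 8 and 8.28 in KO1 and 34.4, 32.6 and 15.3 in KO2. All KO1 values lay below Vector and all KO2 values above, though KO2 replicate 3 exceeded Vector replicate 3 by little. FOS rose by 0.93 in KO2 (SE 0.26, limma adjusted p = 0.0265), and by 1.39 (limma adjusted p = 3.55e-05) without the libraries that stood apart. This call was lost in 6 of the 20 alternatives (highest limma adjusted p = 0.0889), 4 of them fits that left out 1 library, Vector replicate 1 or 2 or KO2 replicate 1 or 2 (0.0722, 0.0845, 0.0861 and 0.0889). In KO1 FOS stood at -0.61 (limma adjusted p = 0.103), and it passed the test without KO2 replicate 3 (same value, limma adjusted p = 0.00315) and without both libraries that stood apart (-0.51, limma adjusted p = 0.000707). The 83 fitted genes within 5 Mb of FOS had a median of -0.68 in KO1, and with neighbours' medians subtracted FOS stood there at 0.11 (limma adjusted p = 0.789). KO2 exceeded KO1 by 1.54 (SE 0.26, limma adjusted p = 0.00227), a call kept under all 20 alternatives.

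FOSB fell in KO1. FOSB (ENSG00000125740, chromosome 19, 45467995 to 45475179, plus strand) measured 6.49, 6.73 and 9.66 FPKM in Vector, 4.22, 4.08 and 4.38 in KO1, and 10.1, 11.2 and 7.09 in KO2. KO1 lay below both other groups in every library, and KO2 overlapped Vector. The change in KO1 was -0.71 (SE 0.18, limma adjusted p = 0.0144), which missed the threshold only without KO1 replicate 2 (0.0507). In KO2 FOSB stood at 0.27 (limma adjusted p = 0.286) and rose by 0.61 without the libraries that stood apart (limma adjusted p = 0.000549). KO2 exceeded KO1 by 0.98 (limma adjusted p = 0.00321). FOSB overlaps ERCC1 on the opposite strand, and whether counting used strand is not given in the sources used here, so FOSB values are uncertain. ERCC1 itself had means of 42.5, 28.2 and 20.4 FPKM in Vector, KO1 and KO2.

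The make-up of the Fos family transcripts stood furthest from Vector in KO2. FPKM is per exon length, so levels can be summed within a library. The FOSL1 share of the summed Fos family FPKM was 86.5% ± 0.436 for Vector, 89.2% ± 0.265 for KO1 and 50.3% ± 4.68 for KO2 (SD, n = 3). FOS held 6.79% ± 0.265, 3.8% ± 0.135 and 27.4% ± 6.79 in the same order, and FOSL2 2.83% ± 0.316, 5.04% ± 0.171 and 12.7% ± 2.73. FOSB held 3.9%, 1.95% and 9.66%. In KO2 replicate 3 FOSL1 held 55.6%, against 48.6% and 46.6% in the other KO2 libraries. The summed Fos family level was 172 to 227 FPKM for Vector, 213 to 220 for KO1 and 78.2 to 111 for KO2. These shares are given as values, with no test.

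**Figure D4:**
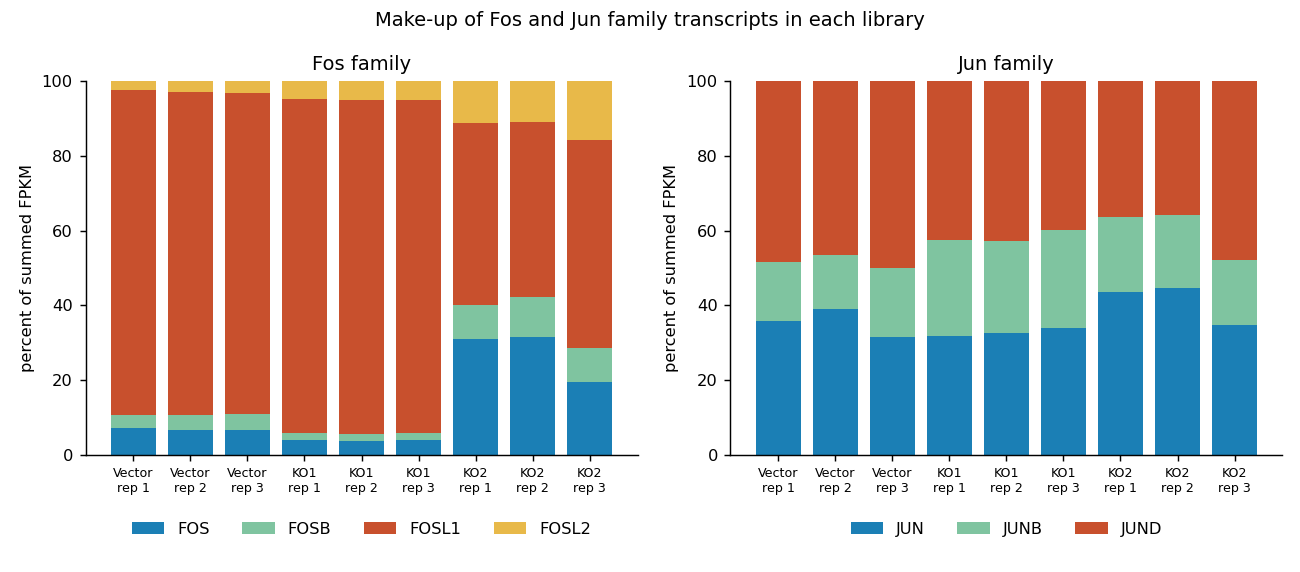
Percent of summed FPKM (y axis) held by each subunit gene of the Fos family (left) and Jun family (right) in each library (x axis). FOSL1 takes 86.0 to 89.4% of the Fos bars in Vector and KO1 and 46.6 to 55.6% in KO2.

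JUN, JUNB and JUND, the Jun proteins that every AP-1 dimer with a Fos protein needs, were called in no comparison in the unweighted fit of the 9 libraries. With library weights, which give the 2 libraries that stood apart little weight, JUN (1.0, limma adjusted p = 0.000146), JUNB (1.18, limma adjusted p = 0.000142) and JUND (0.45, limma adjusted p = 0.0131) were called in KO2. JUNB was then called in KO1 too (1.15, limma adjusted p = 0.000133), and JUN between the clones (0.80, limma adjusted p = 0.000434). The largest weights were those of Vector replicate 2 (3.86) and KO2 replicate 2 (4.04), beside 0.625 and 1.24 for replicate 1 of these groups. The weighted calls in KO2 thus rest mostly on those 2 libraries. Vector replicate 2 was the lowest of its group for 8 of the 10 genes. JUN (ENSG00000177606, chromosome 1, 58780788 to 58784327, minus strand) measured 49.3, 46.8 and 78.7 FPKM in Vector, 60.6, 54.7 and 50.9 in KO1 and 103, 98.2 and 40.9 in KO2. The highest pair of values and the lowest value of JUN were all in KO2. The change in KO2 against Vector was 0.39 (95% confidence interval -0.36 to 1.14, limma adjusted p = 0.424). Without KO2 replicate 3 JUN rose by 0.81 (limma adjusted p = 0.0243), and without both libraries that stood apart by 1.05 (limma adjusted p = 0.000148). In KO1 the value was -0.04 (limma adjusted p = 0.947), and 0.20 without Vector replicate 3 (limma adjusted p = 0.685). KO2 against KO1 gave 0.42 (limma adjusted p = 0.371), and 0.85, called, without KO2 replicate 3 (limma adjusted p = 0.019).

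JUNB (ENSG00000171223, chromosome 19, 12791496 to 12793315, plus strand) measured 21.7, 17.4 and 45.8 FPKM in Vector, 48.8, 40.8 and 39.5 in KO1, and 47.2, 42.8 and 20.3 in KO2. The third Vector library lay among the KO1 values and KO2 replicate 3 among the Vector values. The KO1 value was 0.70 (limma adjusted p = 0.181) and the KO2 value 0.40 (limma adjusted p = 0.468). Without Vector replicate 3 JUNB rose by 1.1 in KO1 (limma adjusted p = 0.0271), and without both libraries by 1.17 in KO2 (limma adjusted p = 0.000568). HOOK2, which overlaps JUNB on the opposite strand, did not pass 3.39 FPKM.

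JUND (ENSG00000130522, chromosome 19, 18279760 to 18281622, minus strand), the least inducible Jun gene, measured 66.4, 55.9 and 124 FPKM in Vector, 81.1, 71.8 and 60.1 in KO1 and 85.8, 79 and 56.2 in KO2. The 3 groups overlapped. The KO1 value was -0.13 (limma adjusted p = 0.755) and the KO2 value -0.09 (limma adjusted p = 0.841), and in KO2 the sign turned to 0.43 without both libraries (limma adjusted p = 0.0478). The JUND share of the summed Jun family FPKM was 48.3% ± 1.7 for Vector, 41.8% ± 1.62 for KO1 and 40.1% ± 6.78 for KO2 (SD, n = 3). JUN held 35.5% ± 3.69, 32.8% ± 1.01 and 41% ± 5.38, and JUNB 16.2% ± 2.01, 25.4% ± 0.93 and 18.9% ± 1.45. No Jun gene held a share as large as that of FOSL1 in the Fos family of Vector cells.

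EGR1, a zinc finger factor induced through CArG boxes, fell in KO1. EGR1 (ENSG00000120738, chromosome 5, 138465490 to 138469315, plus strand) measured 42.6, 40.5 and 54.6 FPKM in Vector, 21.6, 20.2 and 21 in KO1, and 51.6, 49.9 and 28 in KO2. KO1 lay below both other groups in every library. The change in KO1 was -1.08 (SE 0.22, limma adjusted p = 0.00493), called under all 20 alternatives with values from -1.21 to -0.96. KO2 exceeded KO1 by 0.96 (SE 0.22, limma adjusted p = 0.00962), also called under all 20. In KO2 against Vector EGR1 stood at -0.12 (95% confidence interval -0.62 to 0.37, limma adjusted p = 0.712), and at 0.28, called (limma adjusted p = 0.00498), without the libraries that stood apart.

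IER3 (IEX-1), a short-lived stress-inducible protein that modulates apoptosis and ERK signalling, rose in KO1. IER3 (ENSG00000137331, chromosome 6, 30743199 to 30744554, minus strand) measured 19.4, 18.3 and 24 FPKM in Vector, 126, 106 and 102 in KO1, and 52.7, 55.4 and 20.5 in KO2. KO1 lay above all other libraries, and KO2 replicate 3 fell within the Vector range. The change in KO1 was 2.38 (SE 0.32, limma adjusted p = 0.000583), a ratio of means of 5.42, called under all 20 alternatives. In KO2 the value was 0.91 (limma adjusted p = 0.065), and IER3 rose there by 1.36 without KO2 replicate 3 (limma adjusted p = 0.000419). KO2 against KO1 gave -1.48 (limma adjusted p = 0.00806). The antisense transcript IER3-AS1 did not pass 0.648 FPKM.

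IER2, a nuclear immediate-early protein, differed between the clones and was not called against Vector. IER2 (ENSG00000160888, chromosome 19, 13150415 to 13154908, plus strand) measured 37.4, 32 and 46.6 FPKM in Vector, 46.6, 46.9 and 43.5 in KO1 and 32.4, 30.4 and 16.6 in KO2. The KO2 values lay below the KO1 values, and each clone overlapped Vector. KO2 against KO1 gave -0.82 (SE 0.23, limma adjusted p = 0.026). This call was lost in 6 of the 20 alternatives, including the fits without KO1 replicate 1, 2 or 3 (limma adjusted p = 0.0758, 0.0762 and 0.0595). Against Vector KO1 gave 0.25 (limma adjusted p = 0.443) and KO2 gave -0.57 (limma adjusted p = 0.101). Without both libraries that stood apart KO1 gave 0.39, called (limma adjusted p = 0.00464), and KO2 gave -0.14 (limma adjusted p = 0.224). Without KO2 replicate 3 alone KO2 gave -0.28 (limma adjusted p = 0.204).

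For each gene whose group means differed by at least 1 on the log2 scale, the genes most like it were sought by the mean absolute difference between centred log2 values over the 9 libraries, among genes averaging 5 FPKM or more and not within 5 Mb. For FOSL1 these were AL596325.2 (0.147), UBALD2 (0.148) and CD163L1 (0.158). For FOS they were YBX2 (0.158), ADM (0.165) and TSPYL2 (0.171), and for EGR1 UNG (0.0979) and PDIA4 (0.126). For FOSL2 they were ABR (0.0599), PLD2 (0.0712) and PRKD2 (0.0793), and for IER3 PPDPF (0.236), LOXL1 (0.259) and SERPINA1 (0.267). The 9 libraries share group means and the 2 libraries that stood apart, so these values are descriptions.

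Other immediate-early genes moved in both directions in both clones. Of 25 listed, 21 were fitted, and 8 rose and 3 fell in KO1 (median 0.24, beside 0.01 over all fitted genes), while 4 rose and 4 fell in KO2 (median 0.02, beside 0 over all), where 34.1% and 27.9% of all fitted genes were called. Without the 2 libraries that stood apart 13 rose and 4 fell in KO1 and 9 rose and 5 fell in KO2, beside 56.8% and 49.5% of fitted genes. PPP1R15A (GADD34), a phosphatase subunit of the stress response, rose in KO1 by 2.23 (22.5 ± 6.31 FPKM for Vector and 107 ± 7.47 for KO1, SD, n = 3; limma adjusted p = 0.000366). It stood at 20.2 ± 7.54 FPKM in KO2 (log2 -0.19, limma adjusted p = 0.649), where it turned to 0.36, called, without both libraries that stood apart (limma adjusted p = 0.0132). IER5 rose in KO1 by 1.68, and EGR3, a relative of EGR1, from 0.101 ± 0.0151 to 1.47 ± 0.165 FPKM (log2 1.17). In KO2 the nuclear receptor NR4A2 rose by 1.34 (9.35 ± 0.535 FPKM for Vector and 25.7 ± 6.13 for KO2, limma adjusted p = 0.000517) and NR4A1 by 1.13. PER1 rose in both clones (0.98 in KO1 and 1.2 in KO2). IER5 was also called in KO2 (0.93) and NR4A1 in KO1 (0.59) without the 2 libraries that stood apart. KLF4, a zinc finger factor, fell from 4.58 ± 0.767 FPKM in Vector to 0.0056 ± 0.0097 in KO1 and 0.131 ± 0.0433 in KO2 (limma adjusted p = 1.67e-06 and 3.84e-06). RHOB, a small GTPase, fell in both (-1.32 and -1.04, and -0.47 in KO2 without both libraries), TRIB1 fell in KO1 (-0.31), and KLF2 fell in KO2 (-0.95, and -0.39 without both libraries).

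Genes listed as AP-1 targets stood mostly lower in KO2 than in KO1. Of 18 listed, 13 were fitted. In KO1 7 rose and 3 fell (median 0.68, beside 0.01 over all fitted genes), where 17.4% and 16.7% of fitted genes rose and fell. In KO2 2 rose and 7 fell (median -0.56, beside -0.005 over all), where 12.9% rose and 15% fell. In KO2 against KO1 1 was higher and 8 lower (median -1.27, beside -0.02 over all), where 14.5% were higher and 16.4% lower. Without the 2 libraries that stood apart the counts were 8 and 4 in KO1, 4 and 7 in KO2, and 2 and 9 between the clones, beside 56.8%, 49.5% and 47.7% of fitted genes. MMP1, an interstitial collagenase, fell in both clones from 10 ± 1.16 FPKM to 0.643 ± 0.151 and 0.831 ± 0.0895, with limma adjusted p = 6.75e-07 and 1.23e-06. PLAUR, the urokinase receptor, fell in KO2 (log2 -1.51, limma adjusted p = 0.00198; -1.11 without both libraries), while PLAU, urokinase itself, rose in KO1 by 1.44 (limma adjusted p = 0.00463). IL11 rose in KO1 from 0.484 ± 0.412 to 20.3 ± 1.21 FPKM (log2 3.88) and LIF, a cytokine of the IL-6 family, by 1.68. TIMP1, an inhibitor of matrix metalloproteases, fell in both clones (-1.42 and -1.23). CCND1 (cyclin D1) rose in both clones (0.87 and 0.64), and CD44 rose in KO2 by 0.58. LIF (0.91) and IL11 (0.70) were also called in KO2 without the 2 libraries that stood apart.

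**Figure D5:**
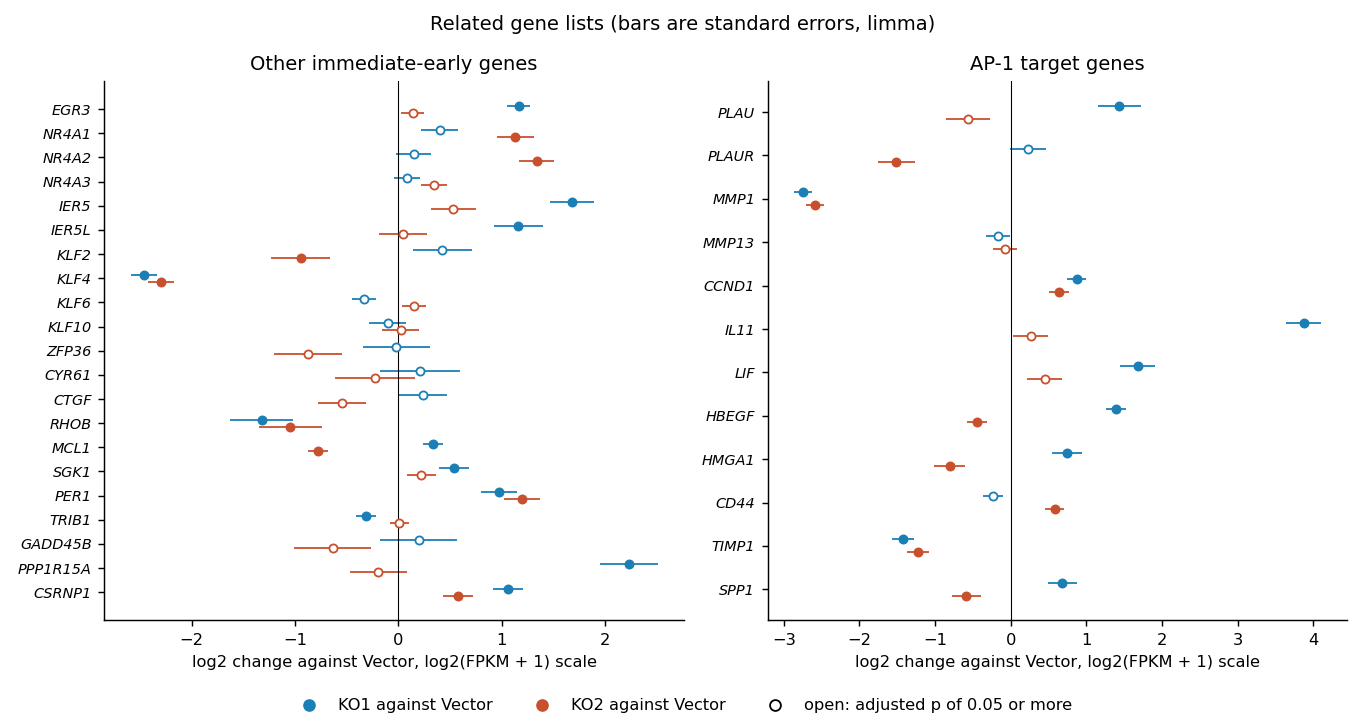
log2 change against Vector (x axis, log2(FPKM + 1) scale) of the fitted and reported genes on the lists of other immediate-early genes (left) and AP-1 targets (right); blue is KO1, orange is KO2, bars are standard errors, filled points were called. KLF4 and MMP1 lie left of 0 in both clones, and IL11 in KO1 lies at 3.88.

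Among 9 fitted of 14 other AP-1 family factors, 3 rose and 4 fell in KO1 (34.1% of all fitted genes called) and 1 rose and 4 fell in KO2 (27.9%). The small Maf genes, which encode dimer partners without a transactivation domain, were the 3 that rose in KO1: MAFG by 1.33, MAFK by 1.03 and MAFF by 0.96. BATF3, which pairs with Jun proteins, fell in KO1 (-1.10) and in KO2 (-0.81), as did JDP2, a Jun-binding repressor (-0.51 and -0.61), BATF2 (-0.48 and -0.51) and ATF3, a stress-induced relative (-0.46 and -0.78). ATF7 rose in KO2 by 0.50. MAFK, not called in KO2 (0.62), was called there at 1.22 without the 2 libraries that stood apart. The list medians were -0.16 in KO1 and -0.33 in KO2, and without both libraries that stood apart the counts were 4 up and 5 down in KO1 (56.8% of fitted genes called) and 2 up and 4 down in KO2 (49.5%).

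Of 20 fitted upstream factors and kinases of 21 listed, 4 were called in KO1, all higher, and 3 rose and 3 fell in KO2 (medians 0.06 and -0.07), beside 34.1% and 27.9% of all fitted genes called. Without the 2 libraries that stood apart 7 rose and 5 fell in KO1 and 4 rose and 7 fell in KO2, beside 56.8% and 49.5%. RPS6KA1 (RSK1), a kinase activated by ERK, rose in both clones (1.06 and 0.67), as did MAP2K7, a kinase of JNK (0.62 and 0.49). CREB1, a factor that binds the CRE, rose by 0.52 in KO1. In KO2 MKL1 (MRTFA), a partner of SRF, rose by 0.80, and the CREB relative ATF1 (-0.78) and the ETS factors ELK1 (-0.43) and ELK3 (-0.41) fell.

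Of 8 fitted EGR1 corepressors and targets, 2 rose and 2 fell in KO1 and 2 were called in KO2, both higher (medians 0.30 and 0.10), beside 34.1% and 27.9% of fitted genes. Without the 2 libraries that stood apart 3 rose and 2 fell in KO1 and 4 rose and 1 fell in KO2, beside 56.8% and 49.5%. THBS1 (thrombospondin 1) rose from 7.49 ± 0.158 FPKM to 49.2 ± 1.48 in KO1 and 36.7 ± 10.3 in KO2 (log2 2.56 and 2.11, limma adjusted p = 6.21e-06 and 2.88e-05). PDGFA rose by 1.44 in KO1 and by 0.72 in KO2, and in KO1 PDGFB (-0.49) fell. Of 8 fitted factors of mRNA decay and protein turnover among 9 listed, 2 rose in KO1, beside 34.1% of fitted genes called. These were ZFP36L2 (0.67) and HNRNPD (0.46). Their KO2 values were 0.15 and 0.11 (limma adjusted p = 0.493 and 0.557), and 0.39, called, and 0.20 without the 2 libraries that stood apart (limma adjusted p = 0.0113 and 0.05). With the 2 libraries that stood apart left out, 3 of the 8 rose and 2 fell in each clone, beside 56.8% and 49.5% of fitted genes.

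The heat shock genes, which respond to stress and handling, were listed beside these. In KO2 3 of 6 rose, HSPA1A by 1.75, HSPA1B by 1.62 and DNAJB1 by 0.43, and in KO1 1 fell, HSPA8 (-1.32). Over all fitted genes 27.9% were called in KO2 and 34.1% in KO1. Without the 2 libraries that stood apart 3 rose and 1 fell in KO2, and 2 rose and 2 fell in KO1, beside 49.5% and 56.8% of fitted genes. HSPA1A (0.70) and HSPA1B (0.61) were then called in KO1. HSPA1A stood at 51.4, 50.8 and 30.3 FPKM in KO2, with the lowest value in replicate 3 as for FOS, JUN and EGR1, and at 10.3 to 15.4 FPKM in Vector and 16.4 to 19.2 in KO1. Over the 6 genes KO2 replicate 3 was the lowest of its group for 2 and the highest for 4. The summed level of the 6 genes was 836 to 1112 FPKM for Vector, 587 to 629 for KO1 and 915 to 1206 for KO2. The highest sum was that of KO2 replicate 3, most of it HSPA8 (407 FPKM) and HSP90AA1 (675 FPKM). HSPA1A and HSPA1B are near-identical copies, so their reads could have been split. The part of stress or handling in the levels of the 10 genes was not tested.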

How the data were processed

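The authors deposited FPKM per gene, 1 column per library, and hg38 is the build, with featureCounts 1.5.0-p3, HISAT2 2.0.5 and CASAVA 1.6 as tools, per the submitters' processing notes. Their roles, options, strand setting and annotation: not given in the sources used here. The 58735 identifiers were all found in GENCODE 29, which gave positions and merged exon lengths. FPKM multiplied by length and by a depth factor per library, found from the values, gave whole reads for 100.0% of values within 0.02 reads. limma 3.58.1 (R 4.3.3, trended empirical Bayes) was fitted to log2(FPKM + 1) of the 16426 genes that averaged 0.5 FPKM or more, all 9 libraries in 1 fit with group as the only term. The fit was tested on simulated data with a common spread for all libraries and changes in KO1 alone. Libraries that stand apart were not simulated, so that run does not cover them. Named were the 10 genes and, per list and clone, up to 3 rising and 3 falling called genes with the largest change. Some genes that these rules pick are not reported here. Members, lists and tests were chosen with earlier results of these data known. Alternatives were 20 settings for pseudocount, filter, scaling, samples, replicate block, weights, test, neighbours and libraries.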

Additional observations from a re-analysis of the deposited data

Results flagged for a closer look

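The effects of the clones against Vector differed by the direct test of KO2 against KO1 (limma, adjusted over all fitted genes) for 6 of the 10 genes. Over all fitted genes 30.9% were called in that test. FOS (1.54), FOSB (0.98) and EGR1 (0.96) were higher in KO2 than in KO1. FOSL1 (-1.98), IER3 (-1.48) and IER2 (-0.82) were lower in KO2. The KO2 and KO1 libraries, KO2 replicate 3 included, did not overlap for 7 of the 10 genes, these 6 and FOSL2, beside 53.6% of all fitted genes. The 6 were picked by the test on the same values, so their lack of overlap adds no support.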

How the results depend on the processing

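Calls for FOSL2, EGR1 and IER3 in KO1, FOSL1 and FOSL2 in KO2, and FOS, FOSB, FOSL1, EGR1 and IER3 between the clones held under all 20 alternatives. Over the 10 genes in 3 comparisons, 534 of the values under alternatives kept direction and side of the threshold, 29 gained a call, 13 lost one and 24 turned sign. Changes of filter, of the groups fitted, of the replicate block or of a library outside the comparison leave the estimate itself unchanged. Direction could not turn under those settings, and only the adjusted p could move. Sign turned for values not called over the 9 libraries. Values below are with library weights, then without Vector and KO2 replicates 3 together, then the range of fits leaving out 1 library. In KO1, JUN gave 0.198, 0.197 and -0.172 to 0.197, and JUND 0.271, 0.207 and -0.361 to 0.207. In KO2, JUND gave 0.445, 0.428 and -0.321 to 0.248, and EGR1 0.263, 0.283 and -0.274 to 0.154. Between the clones, JUNB gave 0.0258, 0.0679 and -0.521 to 0.0679, and JUND, which turned only in fits leaving out 1 library and with neighbours subtracted, -0.0791 to 0.221 in the former. With neighbours' medians subtracted FOS stood at 0.107 and FOSL1 at -0.0313 in KO1, and JUND at -0.00608 between the clones. The cause was not tested.

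Genes called numbered 5609 in KO1, 4586 in KO2, 5079 between the clones and 5143 for the mean of both clones. Library weights gave 10779, 10061, 9764 and 10669, and leaving out Vector and KO2 replicates 3 gave 9335, 8138, 7834 and 8946. Leaving out 1 library gave 3705 to 7367, 3203 to 6531, 3337 to 6756 and 3375 to 7030, with counts lower by over 1.5 times without KO1 replicate 2 (KO1), without KO1 replicate 1 or 2 (between the clones) and without Vector replicate 1 or 2 (mean of both). The KO2 and Vector libraries alone gave 2963. The replicate block gave 4911, 3953, 4428 and 4393 and changed no call of the 10 genes. Deviations of same-numbered libraries from their group means correlated weakly and with both signs (r from -0.202 to 0.142), so the numbers were not taken as pairs. By recovered reads, which are not per length, FOSL1 held 71.9%, 74% and 28.9% of the Fos family in Vector, KO1 and KO2, and JUN 51.2%, 48.3% and 56.9% of the Jun family.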
